A study of Mus musculus with 16 samples.

Results

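The genes described here are 9 that carry the liver's handling of glucose: Pcx, Pck1, Fbp1 and G6pc of gluconeogenesis, the glucose transporter Slc2a2, the regulatory protein Gckr, the glycolytic enzyme Pklr, and Gys2 and Pygl, which build and break down glycogen. They were listed by name, with earlier results of these data known, and were matched to the deposited tables through their Ensembl identifiers (G6pc is ENSMUSG00000078650.3, Pck1 ENSMUSG00000027513.12, Fbp1 ENSMUSG00000069805.11, Pcx ENSMUSG00000024892.18, Slc2a2 ENSMUSG00000027690.14, Gckr ENSMUSG00000059434.10, Pklr ENSMUSG00000041237.13, Gys2 ENSMUSG00000030244.8 and Pygl ENSMUSG00000021069.18). All 9 were found among the 78317 genes listed, and all 9 were among the 14781 genes with enough counts to be tested. The RNA came from whole liver of wild-type C57BL/6J mice, an inbred strain, in 4 groups of 4 animals. These were females on a normal diet, females on a high fat diet, males on a normal diet and males on a high fat diet. The normal diet was LabDiet 5053 chow, given in the labels as 4.5% of calories from fat. The high fat diet was Research Diets D12492, given as 60% of calories from fat. The 2 diets come from different makers, so fat is not their only possible difference. Every mouse arrived at 6 weeks of age, was housed in a group, ate freely and stayed on its diet for 10 weeks. The hour of collection and the time since the last meal are not given in the sources used here. The question put by the series is what the high fat diet does to liver RNA in each sex.

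The liver is the main organ that releases glucose into the blood between meals. It does so by breaking down glycogen and by making new glucose from lactate, amino acids and glycerol. Pyruvate carboxylase (Pcx) and phosphoenolpyruvate carboxykinase (Pck1) lead carbon from pyruvate into the path, fructose-1,6-bisphosphatase (Fbp1) passes the step that phosphofructokinase runs the other way, and glucose-6-phosphatase (G6pc) frees glucose for export. After a meal the flow turns round: glucose enters through Slc2a2 (GLUT2), is phosphorylated, and is stored by glycogen synthase (Gys2), while pyruvate kinase (Pklr) ends glycolysis. Gckr is a nuclear protein that restrains the phosphorylation of glucose when glucose is low, and glycogen phosphorylase (Pygl) releases glucose units from glycogen. Insulin, glucagon, glucocorticoids and glucose itself are known to set the RNA level of several of these genes in hepatocytes, with Pck1, G6pc and Pklr as textbook cases.

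The stretch before the transcription start is shown for those 3 genes, since they are the members best known for control at the promoter, by hormones for Pck1 and G6pc and by glucose for Pklr. The sequences are from RefSeq on mouse build GRCm38.p6 and cover the 250 bases before the start, 5′ to 3′ on the gene's own strand. Capitals mark matches to the short motifs searched. Pck1 lies at chr2:173152823-173153072 on the plus strand, G6pc at chr11:101367466-101367715 on the plus strand and the second listed start of Pklr at chr3:89136373-89136622 on the plus strand.
Pck1: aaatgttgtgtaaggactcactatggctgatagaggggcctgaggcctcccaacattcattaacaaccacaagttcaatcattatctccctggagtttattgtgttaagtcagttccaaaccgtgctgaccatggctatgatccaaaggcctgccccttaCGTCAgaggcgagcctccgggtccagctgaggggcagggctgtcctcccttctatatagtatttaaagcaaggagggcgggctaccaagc
G6pc: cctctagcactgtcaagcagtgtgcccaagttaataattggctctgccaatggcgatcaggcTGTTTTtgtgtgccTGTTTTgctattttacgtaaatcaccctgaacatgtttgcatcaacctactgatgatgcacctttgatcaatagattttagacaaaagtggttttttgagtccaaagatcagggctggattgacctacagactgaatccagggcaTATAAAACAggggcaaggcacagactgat
Pklr: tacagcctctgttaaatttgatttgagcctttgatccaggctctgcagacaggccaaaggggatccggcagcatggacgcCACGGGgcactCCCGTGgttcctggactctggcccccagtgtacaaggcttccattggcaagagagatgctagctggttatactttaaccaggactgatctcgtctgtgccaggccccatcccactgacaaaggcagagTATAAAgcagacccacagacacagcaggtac
In Pck1 the capitals are the core of the cAMP response element (TGACG, read as CGTCA on the printed strand at -90 to -86), where the base before the start is -1. In G6pc they are the insulin response core TGTTTT at -188 to -183 and at -174 to -169, and a TATA box (TATAAA) at -29 to -24, whose end overlaps another TGTTTT on the opposite strand at -26 to -21. In Pklr they are the carbohydrate response core CACGGG at -170 to -165, the same letters on the opposite strand (CCCGTG) at -159 to -154, and a TATA box at -31 to -26. Of 9 motifs searched on both strands in 32851 listed promoters, TGACG was in 17.8%, TGTTTT in 19.8%, CACGGG in 8.46% and TATAAA in 12.4%. These letters were not limited to the 3 windows shown: that of Pygl also held CGTCA (-44 to -40) and CACGGG (-29 to -24), and that of Gckr held TGTTTT (-83 to -78). The full cAMP element TGACGTCA (1.55% of promoters), the FoxO site GTAAACA (3.17%) and the D-box TTATGTAA (0.819%) were in none of the 10 windows listed for 8 of the 9 genes. Each motif was searched in 1 spelling only, so other forms of these sites could be present. The G6pc window holds ttacgtaa, which differs from the D-box letters searched by 1 base. The E-box CACGTG (6.02% of promoters) was in 1 window of Pcx, and the glucocorticoid response core TGTTCT (16.1%) in that of Gckr. These are matches of letters and say nothing of binding.

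The deposited counts add up to between 22228115 and 41420589 per library, and the 9 genes together took between 0.393% and 0.597% of a library. Single members had between 1643 and 121178 counts, so counting error was small beside the spread between animals. Levels are given as CPM, the usual count relative to library size, here with library sizes scaled by TMM, edgeR's correction for differences in make-up between libraries. Replicates 2 and 3 of males on the high fat diet were far closer to each other than any other pair of one group: their chi-square per gene was 4.07, against 20.8 for the next closest pair, and no member differed between them by more than 5.7%. They were kept as 2 animals, though the titles give only replicate numbers. The tests, ratios and correlations were also computed with them averaged, for the ratios and correlations as a choice made after seeing the data. The 8 hepatocyte markers were all present, with summed levels of 111000 to 126500 CPM in females on the normal diet and 86650 to 104500 on the high fat diet, and of 90920 to 101800 and 61920 to 82780 in males. Their sums were thus lower on the high fat diet in both sexes with no overlap, but Alb alone made up 60.8% to 77.8% of the sum. Of the 8 markers 2 were called in each sex, lower in each case: Tat and Cps1 in females, and Tat and Alb in males. Ttr and Apoa1 stood at log2 fold changes of 0.04 and 0.06 in females, and Apoc3 and Serpina1c at 0.19 and 0.05 in males. The 6 Kupffer cell and macrophage markers summed to 163.9 to 225.6 CPM in females on the normal diet and 255.3 to 355.9 on the high fat diet, and overlapped between diets in males. Stellate cell markers summed to 214.1 to 256.3 CPM in males on the normal diet and 268.1 to 385.4 on the high fat diet, and overlapped in females, while markers of red blood cells, cholangiocytes, sinusoidal endothelial cells, and T and B cells overlapped between diets in both sexes. Markers of skeletal muscle and kidney tubule stayed at or under 3.032 CPM in sum, with Acta1, Ckm, Myh4, Tnnc2, Slc34a1 and Slc5a2 at 0 counts in every library, those of pancreatic acinar cells at or under 41.18 and those of adipocytes at or under 10.93, the last 2 maxima in males on the high fat diet. The part of these differences in the results below was not tested, and in whole tissue fewer hepatocytes and less of an RNA per hepatocyte cannot be told apart.

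The high fat diet lowered Pck1 and Gys2 in both sexes and raised Pcx in males (edgeR quasi-likelihood test, Benjamini-Hochberg adjusted over all 14781 genes, adjusted p under 0.05). In females 2 of the 9 genes were called, 0 higher and 2 lower, where 11.5% of all tested genes were called (5.74% higher and 5.76% lower). In males 3 of the 9 were called, 1 higher and 2 lower, where 11.4% of all genes were called (6.03% higher and 5.36% lower). Libraries of the 2 diets did not overlap for Pck1, Gys2 and Gckr in females, against 18.3% of all genes, nor for Pck1, Gys2, Pcx and G6pc in males, against 18.5%. The median log2 fold change of the 9 was 0.05 in females and 0.31 in males, beside 0.00 and 0.01 for all genes, and 0.17 in males with high fat replicates 2 and 3 averaged. The difference of the diet change between the sexes was called for 0 of the 9 by edgeR, where 0.677% of all genes were called. It had an unadjusted p under 0.05 for 2 of them, G6pc and Pck1, and DESeq2 and limma called 0 as well.

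**Figure D1:**
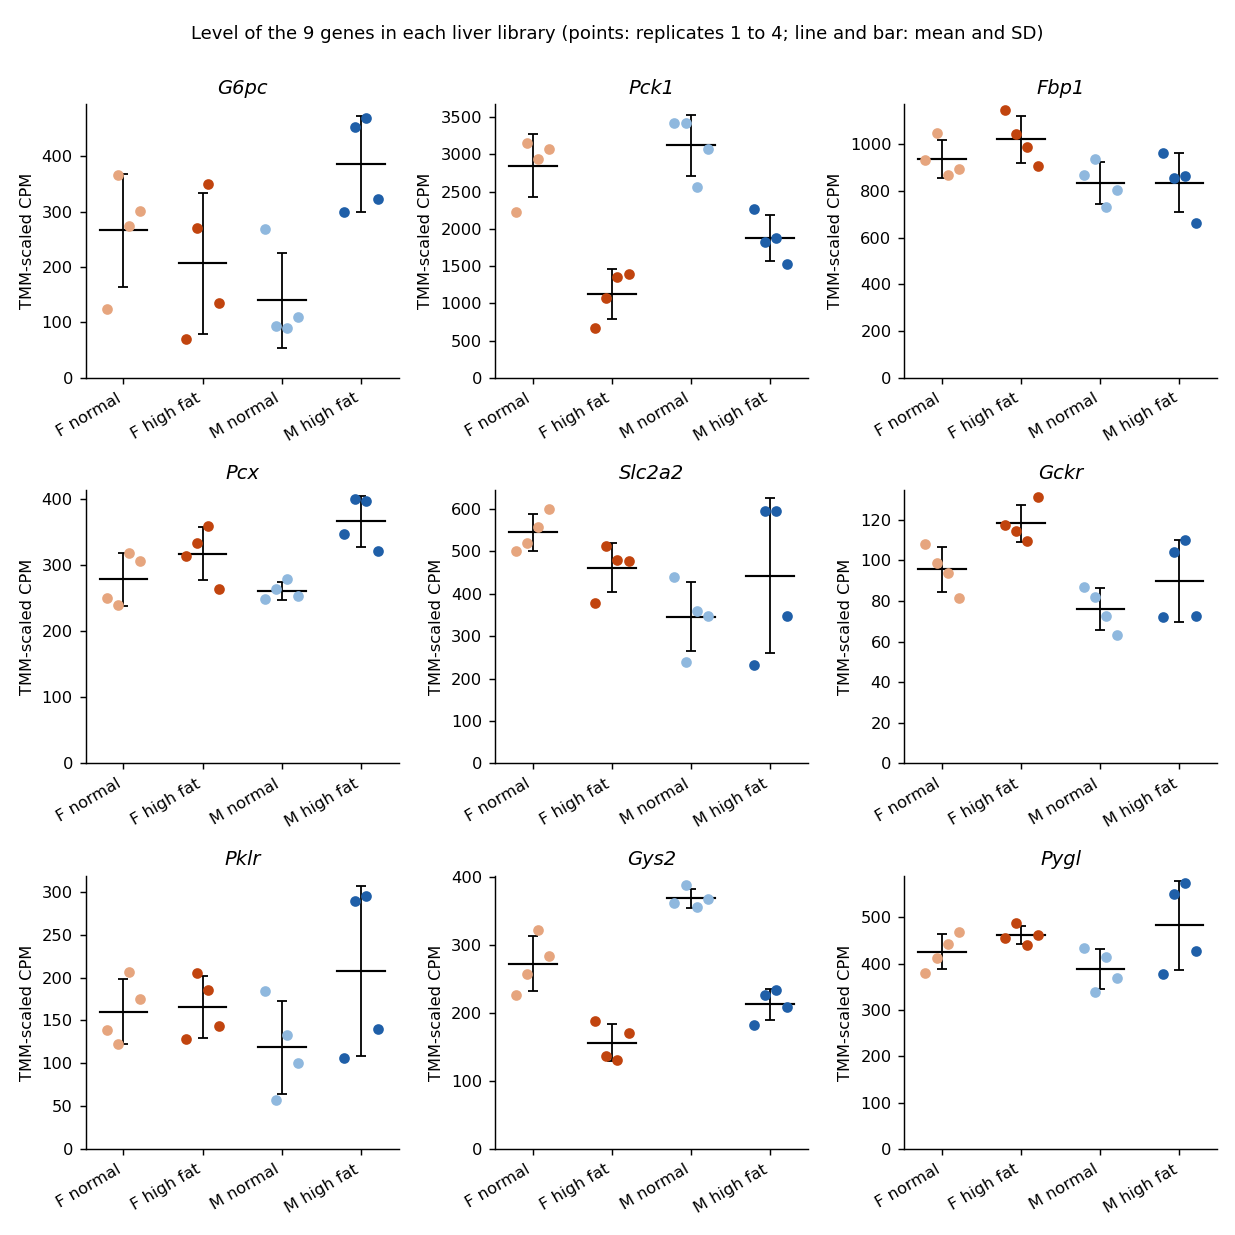
CPM of each of the 9 genes in the 16 libraries, by group. Points are the 4 libraries of a group, and the line and bar are the mean and SD. Pck1 and Gys2 sit lower on the high fat diet in both sexes with no overlap, while G6pc is higher on the high fat diet in males and overlaps in females.

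Pck1 catalyses the step from oxaloacetate to phosphoenolpyruvate. In females on the normal diet the 4 libraries held 2226, 3148, 2941 and 3069.5 CPM of Pck1, and on the high fat diet 668, 1071, 1359.8 and 1396. Every female on the high fat diet was below every female on the normal diet, with replicate 1 the lowest of its group on either diet. The mean of Pck1 went from 2846 ± 422 to 1124 ± 337 CPM (SD, n = 4), a 2.53-fold fall (log2 fold change -1.34, SE 0.20, edgeR adjusted p = 0.000384). In males on the normal diet Pck1 stood at 3425, 3424, 2567 and 3071 CPM, and on the high fat diet at 2272, 1825, 1883 and 1529.9 CPM. The groups did not overlap, but the gap was narrower than in females. The mean of Pck1 in males went from 3122 ± 406 to 1878 ± 305 CPM (SD, n = 4), a 1.66-fold fall (log2 fold change -0.73, SE 0.20, edgeR adjusted p = 0.0219). The call in females held under all 25 alternatives. That in males was lost under 6 of 25: in limma on TPM (adjusted p = 0.0551 and 0.0528 with pseudocounts of 1 and 0.1), and without normal diet replicate 1 (0.0564), normal diet replicate 2 (0.0538), high fat replicate 2 (0.0543) or high fat replicate 4 (0.0718). The change in females minus that in males was -0.61 on the log2 scale (95% interval -1.15 to -0.07), which did not pass the adjusted test (edgeR adjusted p = 0.358).

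Gys2 makes the chains of glycogen in hepatocytes. In females on the normal diet its libraries held 227, 257, 322 and 284 CPM, and on the high fat diet 188, 137, 131 and 171 CPM. In males the values of Gys2 were 362, 389, 357 and 368 CPM on the normal diet and 183, 227, 234 and 209.7 CPM on the high fat diet. In each sex every library on the high fat diet was below every library on the normal diet. The means of Gys2 were 273 ± 40.3 and 157 ± 27.3 CPM in females, a 1.74-fold fall (log2 fold change -0.80, SE 0.13, edgeR adjusted p = 0.00104). They were 369 ± 14.2 and 213 ± 22.9 CPM in males, a 1.73-fold fall (log2 fold change -0.79, SE 0.13, edgeR adjusted p = 0.00102; SD, n = 4 throughout). Both calls held under all 25 alternatives. The difference between the sexes in this change was -0.01 on the log2 scale, with a 95% interval of -0.37 to 0.36.

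Pcx, which turns pyruvate into oxaloacetate in mitochondria, moved the other way. In males on the normal diet its libraries held 248, 264, 278 and 252 CPM, and on the high fat diet 346, 399, 397 and 320.4 CPM. All 4 males on the high fat diet were above all 4 on the normal diet, and replicates 2 and 3 of the high fat group, the close pair named above, were the highest. The mean of Pcx in males went from 261 ± 13.5 to 366 ± 38.9 CPM (SD, n = 4), a 1.40-fold rise (log2 fold change 0.49, SE 0.12, edgeR adjusted p = 0.0159). The call was lost without high fat replicate 2 (adjusted p = 0.0513) and held under the other 24 alternatives. In females Pcx lay between 239 and 318 CPM on the normal and between 263 and 359 CPM on the high fat diet, with a log2 fold change of 0.19 (SE 0.12, edgeR adjusted p = 0.342). It was called in females only when the TMM scaling was left out (0.0415) or in limma on TPM (0.0277 and 0.029). Those scalings move the median of all genes in females up by 0.19, 0.15 and 0.22 on the log2 scale. The difference between the sexes was -0.30 (95% interval -0.64 to 0.04, edgeR adjusted p = 0.497).

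G6pc, the last enzyme before glucose leaves the cell, had the largest standard errors of the 9. In males on the normal diet its libraries held 268, 92.8, 90.5 and 109 CPM, and on the high fat diet 299, 452, 468 and 323 CPM. Replicate 1 on the normal diet stood well above the other 3 of its group, and was still below all 4 males on the high fat diet. The mean of G6pc in males went from 140.1 ± 85.5 to 385 ± 86.9 CPM (SD, n = 4), a fold change of 2.75 (log2 fold change 1.46, SE 0.50) that did not pass the adjusted test (edgeR adjusted p = 0.0786). It did pass in DESeq2 (adjusted p = 0.0278), in limma on TPM (0.0402 and 0.0452), with the 2 male groups fitted alone (0.0457), without normal diet replicate 1 of the males (0.029) and without high fat replicate 1 of the females (0.0429). Over all 25 alternatives the adjusted p ran from 0.0278 to 0.18 and the log2 fold change from 1.30 to 1.98. In females G6pc held 125, 366, 273 and 300.2 CPM on the normal diet and 70.1, 271, 350.4 and 135 CPM on the high fat diet. The female groups overlapped almost fully, and replicate 1 was the lowest on both diets. The log2 fold change in females was -0.37 (SE 0.49, edgeR adjusted p = 0.676). The changes of the sexes differed by -1.83 on the log2 scale (95% interval -3.2 to -0.45, edgeR adjusted p = 0.291), which did not pass the adjusted test.

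Beside G6pc stand the values of 2 clock genes, chosen with earlier results of these data known, since several genes of glucose metabolism are known to cycle over the day. Nr1d1, which encodes the repressor REV-ERBα, held 9.16 to 17.8 CPM in normal-diet females and 40.6 to 59.4 CPM in high-fat females. In males Nr1d1 held 18.8 to 29.5 CPM on the normal and 5.76 to 6.99 CPM on the high fat diet. It was thus higher on the high fat diet in females (log2 fold change 1.79, edgeR adjusted p = 7.6e-05) and lower in males (-1.91, 5.68e-05), with a difference between the sexes of 3.71 (adjusted p = 5.54e-06). Dbp, an activator that binds D-boxes, changed by 0.70 in females (0.0263) and by -1.57 in males (0.000115), a difference of 2.27 (0.000837). The call of Dbp in females was lost without normal diet replicate 1 (0.062), normal diet replicate 2 (0.0751), high fat replicate 1 (0.0844) or high fat replicate 4 (0.087), and with no filter on low counts (0.0515). The labels give a single batch number for all 16. The part of the clock genes in the G6pc values was not tested.

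Fbp1 held 870 to 1050.5 CPM in females on the normal diet and 907 to 1147 on the high fat diet. In males Fbp1 held 731 to 939 CPM and 663 to 964 CPM. The groups overlapped in both sexes, and the log2 fold changes were 0.12 (95% interval -0.12 to 0.37) in females and 0.00 in males, with edgeR adjusted p of 0.564 and 0.991. Limma on TPM alone called the female change (log2 difference 0.36, adjusted p = 0.0374 and 0.0377).

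Slc2a2 encodes the high-capacity glucose transporter of the hepatocyte surface. In males on the high fat diet its libraries fell into a high and a low pair: 233, 594, 595 and 348 CPM, the high pair being the close replicates 2 and 3. The males on the normal diet held 438, 239, 359 and 348 CPM of Slc2a2, inside that range. Females held 501, 519.5, 558 and 599 CPM on the normal diet and 377, 513, 478 and 477 CPM on the high fat diet. Neither diet change was called, at a log2 fold change of -0.24 (SE 0.24, edgeR adjusted p = 0.556) in females and 0.35 (SE 0.24, adjusted p = 0.362) in males. Gckr, the restraint on glucose phosphorylation, was higher in all 4 females on the high fat diet (109.7 to 131 CPM) than in any on the normal diet (81.5 to 108 CPM), though narrowly. Its log2 fold change was 0.31 in females (SE 0.14, edgeR adjusted p = 0.174) and 0.24 in males (SE 0.14, adjusted p = 0.298). The female change of Gckr was called without TMM scaling (0.0244) and in limma on TPM (0.0136 and 0.0148), the scalings that shift all genes as given for Pcx.

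Pklr, the liver's pyruvate kinase, and Pygl, its glycogen phosphorylase, showed the same split among the males on the high fat diet as Slc2a2. Pklr held 106, 289, 295 and 140.03 CPM there, and 185, 56.8, 133 and 100.2 CPM in normal-diet males. The log2 fold change of Pklr in males was 0.81 (SE 0.37, 95% interval 0.08 to 1.53), which did not pass the adjusted test (edgeR adjusted p = 0.173). In females Pklr lay between 122 and 206 CPM on the normal and between 128 and 205 CPM on the high fat diet, and its log2 fold change was 0.05 (SE 0.37, adjusted p = 0.954). Pklr is the one member whose estimated counts were not whole in 15 of the 16 libraries, and its exons overlap those of Hcn3 on the other strand in the GENCODE M21 annotation; whether the counting used the strand is not given in the sources used here. Pygl held 377, 549.6, 575 and 428 CPM in high-fat males, against 433, 338, 414 and 369.8 CPM in normal-diet males. Its log2 fold change was 0.31 in males (SE 0.13, edgeR adjusted p = 0.134) and 0.12 in females (SE 0.13, adjusted p = 0.612). Without high fat replicate 1 the male change of Pygl was called (0.41, adjusted p = 0.0405).

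**Figure D2:**
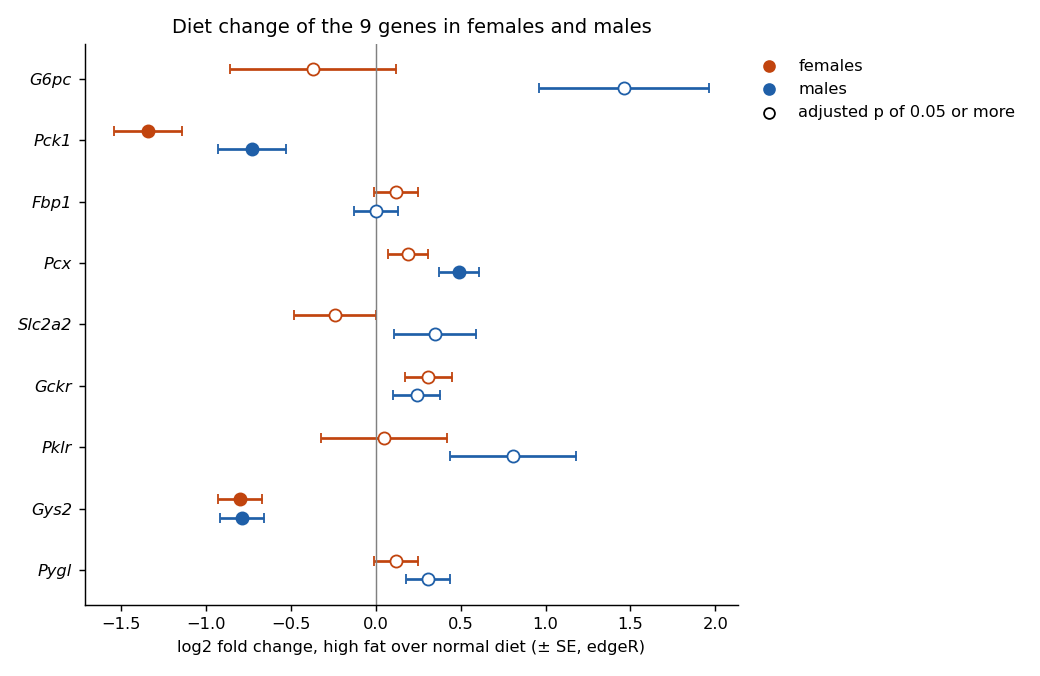
Log2 fold change of each of the 9 genes on the high fat diet against the normal diet, in females and in males, with bars of ± SE from the edgeR fit. Filled points are called at an adjusted p under 0.05 and open points are not. Pck1 and Gys2 lie below 0 in both sexes, Pcx lies above 0 in males, and the 2 bars of G6pc are the longest.

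Compared per length, as TPM (the share of transcripts after division by length, scaled to one total in every library), the order of the 9 genes also changed with diet. Pck1 led in females on the normal diet at 1352 ± 237 TPM, ahead of Fbp1 at 890.1 ± 45.9 TPM (SD, n = 4), and their ranges did not overlap. On the high fat diet the order in females was reversed, with Fbp1 at 1148 ± 107 TPM and Pck1 at 631 ± 193 TPM, again without overlap. Males on the normal diet had Pck1 at 1469 ± 176 TPM and Fbp1 at 791 ± 93.8 TPM with no overlap, while on the high fat diet Pck1 at 933 ± 144 TPM overlapped Fbp1 at 834 ± 117 TPM. Pygl followed these 2 in 3 groups, and Gys2 followed them in males on the normal diet, overlapping Pygl. Gckr was the lowest of the 9 in every group, at 43.04 to 79.6 TPM in the group means, overlapping Pklr next above it in each.

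Enzymes that run opposite steps were set against each other as ratios of TPM within a library. Gys2 to Pygl, synthesis to breakdown of glycogen, was 0.64, 0.67, 0.78 and 0.65 in females on the normal diet and 0.44, 0.30, 0.32 and 0.40 on the high fat diet. In males the ratio of Gys2 to Pygl was 0.89, 1.23, 0.92 and 1.07 on the normal diet and 0.52, 0.44, 0.44 and 0.53 on the high fat diet. The diets did not overlap in either sex, and the mean log2 ratio was lower by 0.92 in females and 1.09 in males on the high fat diet (log2 differences of -0.92 and -1.09). The log2 ratio of Pck1 to Pklr, the 2 ends of the step between oxaloacetate or pyruvate and phosphoenolpyruvate, differed between diets by -1.44 in females, with no overlap, and by -1.53 in males, where the diets overlapped (TPM ratios of 20.41 to 66.47 on the normal and 6.963 to 23.61 on the high fat diet). The log2 ratio of Fbp1 to Pfkl (liver phosphofructokinase) differed by -0.03 and 0.01. With high fat replicates 2 and 3 averaged the male differences were -1.05 for Gys2 to Pygl, -1.32 for Pck1 to Pklr and 0.04 for Fbp1 to Pfkl. These ratios are descriptions with no test, and each restates the changes of its 2 genes. By edgeR log2 fold change, Gys2 and Pygl changed by -0.80 and 0.12 in females and by -0.79 and 0.31 in males. Pck1 and Pklr changed by -1.34 and 0.05 in females and by -0.73 and 0.81 in males.

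**Figure D3:**
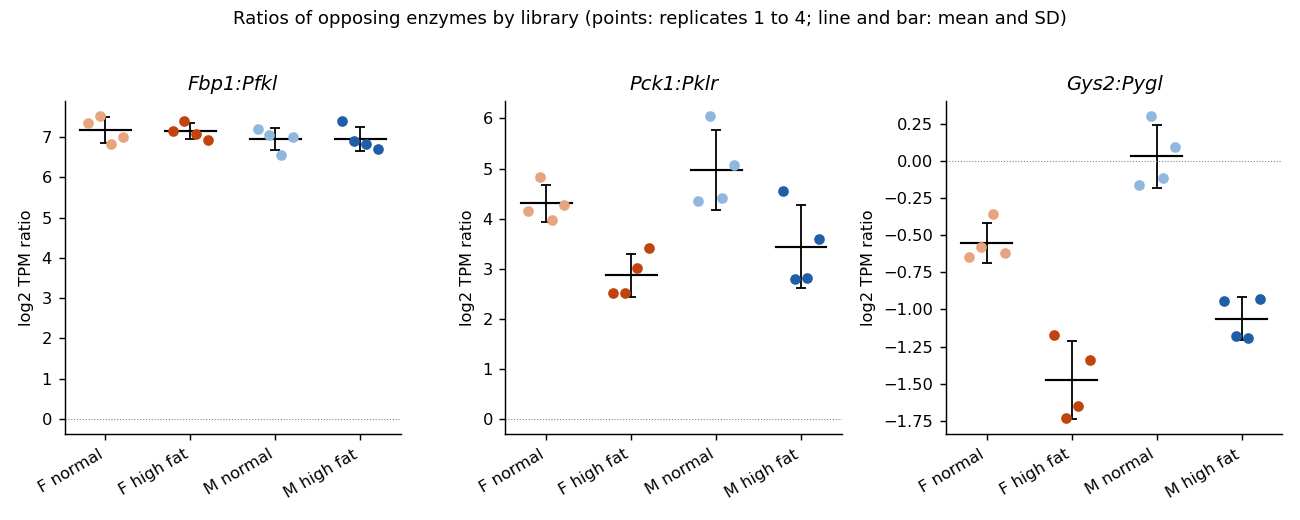
Log2 ratio of TPM for 3 pairs of opposing enzymes in the 16 libraries. Points are replicates 1 to 4, and the line and bar are the mean and SD. Gys2 to Pygl is lower on the high fat diet in both sexes with no overlap, and Fbp1 to Pfkl overlaps in both.

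Members also varied together between animals. About their group means, over 16 libraries, the log2 CPM of Slc2a2 correlated with that of Pygl at r = 0.927 and with that of Pklr at r = 0.921, and Pklr with Pygl at r = 0.892. These 3 genes ranked the 4 males of each diet alike, with replicate 1 highest and replicate 2 lowest on the normal diet, and replicate 3 highest and replicate 1 lowest on the high fat diet. The 3 did not rank the females of either diet alike. There the ranks of Slc2a2 matched only those of Pygl on the normal diet, and only those of Pklr on the high fat diet. G6pc and Pck1 correlated at r = 0.632 about group means but at r = 0.105 over all 16 libraries. Pck1 and Gys2 correlated at r = 0.795 over all libraries and at r = -0.231 about group means, so what they shared was the difference between groups. The 16 values of a gene share their libraries and scaling, and the close pair of males counts as 2, so no p is given. With that pair averaged the r about group means were 0.912 for Slc2a2 with Pygl, 0.91 for Slc2a2 with Pklr, 0.877 for Pklr with Pygl and 0.638 for G6pc with Pck1. By the highest correlation over the 16 libraries among all tested genes, Pck1 was most like Zbtb16 (r = 0.943) and Slc25a51 (0.942), Gys2 most like Nsun2 (0.938) and Anxa7 (0.937), and Pcx most like Slc30a10 (0.893) and Tmem177 (0.864).

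Females and males on the same diet were compared in the same fit. On the normal diet 1 of the 9 was called, Gys2, which was lower in females, where 15.7% of all genes were called (8.68% lower in females). Gys2 did not overlap between the sexes (227 to 322 CPM in females, 357 to 389 in males; log2 difference, female minus male, -0.44, SE 0.13, edgeR adjusted p = 0.0319). Slc2a2 did not overlap either (501 to 599 CPM in females, 239 to 438 in males), and these were 2 of the 9 where 22.0% of all genes did not overlap. Its log2 difference was 0.65 (SE 0.24, edgeR adjusted p = 0.0728), and it passed in DESeq2 (0.0333), with the 2 groups fitted alone (0.0102), without normal diet replicate 1 of the males (0.0478) and without high fat replicate 1 of the males (0.0188). The Gys2 call was lost under 10 of 25 alternatives, with adjusted p up to 0.118. These were the fits without TMM scaling (0.0639), without the filter (0.0565) and on TPM (0.0689 and 0.0658), and those without normal diet replicate 1 (0.118), 2 (0.104) or 4 (0.0575) of the females, or replicate 2 (0.0817), 3 (0.0629) or 4 (0.0692) of the males.

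On the high fat diet 2 of the 9 were called, both lower in females, where 20.4% of all genes were called (11.6% lower in females). Pck1 was 668 to 1396 CPM in females and 1529.9 to 2272 CPM in males, the 1 member without overlap where 22.7% of all genes had none. Its log2 difference was -0.74 (SE 0.20, edgeR adjusted p = 0.0134), and it was lost only with the 2 groups fitted alone (0.0556). Gys2 differed by -0.45 (SE 0.13, adjusted p = 0.024), a call lost under 9 of 25 alternatives. These were limma on TPM (-0.28, adjusted p = 0.182 and 0.184), the fit without TMM scaling (0.124), the 2 groups fitted alone (0.086), the close pair averaged (0.076), and those without high fat replicate 2 (0.065) or 3 (0.0909) of the females and without replicate 2 (0.0579) or 3 (0.0793) of the males. Gckr was higher in females by 0.40 on the log2 scale (SE 0.14, adjusted p = 0.0589) and passed under 12 of 25 alternatives, with adjusted p from 0.0074 to 0.177. These were the fits without TMM scaling (0.0161), in DESeq2 (0.036), on TPM (0.0074 and 0.00772), with the replicate block (0.0451) and with the close pair averaged (0.0285), and those leaving out replicate 1 (0.0493) or 4 (0.0483) of females on the normal diet, replicate 1 (0.0461) or 4 (0.0469) of males on the normal diet, and replicate 2 (0.0425) or 3 (0.0224) of males on the high fat diet. Fbp1 differed by 0.29 (adjusted p = 0.114) and passed without high fat replicate 1 of the males (0.0482), without TMM scaling (0.023) and in limma on TPM (0.00879 and 0.0088). For this comparison the median of all genes stood at 0.12 without TMM scaling. It was 0.10 and 0.15 on TPM with pseudocounts of 1 and 0.1, beside -0.01 in the main fit.

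The rest of the carbohydrate genes were counted in 7 lists, also drawn up with earlier results known. Of the 10 other gluconeogenesis genes tested, 0 rose and 1 fell in females, a share near the 11.5% called over all genes. This was Slc37a4, which carries glucose-6-phosphate to G6pc inside the endoplasmic reticulum (201 ± 22.7 to 115 ± 12.2 CPM, log2 fold change -0.81, edgeR adjusted p = 0.00385). In males 0 of the 10 were called and 3 had an unadjusted p under 0.05, while DESeq2 called 2 as lower. Slc37a4 changed by -0.48 in males (adjusted p = 0.0577). The list's median log2 fold change was -0.28 in females and -0.15 in males, beside 0.00 and 0.01 for all genes tested.

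Of the 22 other glycolysis genes tested, 4 rose and 4 fell in females, where 11.5% of all genes were called, and 1 rose and 6 fell in males, where 11.4% were. The male split was 1 higher and 3 lower in limma on TPM, and 1 and 4 without TMM scaling or without the filter. The brain-type aldolase Aldoc fell in both sexes, from 10.9 ± 1.49 to 3.17 ± 0.73 CPM in females (log2 fold change -1.78, edgeR adjusted p = 1.58e-05) and from 10.2 ± 1.498 to 4.25 ± 0.86 CPM in males (-1.26, 0.000238). Pfkfb3, one of the enzymes that make fructose-2,6-bisphosphate, the activator of phosphofructokinase, fell in females (13.95 ± 1.06 to 5.13 ± 1.78 CPM, -1.45, 0.0106) and in males (50.8 ± 23.2 to 12.0 ± 3.83 CPM, -2.08, 0.000825). Pfkfb1, the liver form of that enzyme, fell in females (32.7 ± 3.64 to 18.4 ± 1.25 CPM, -0.83, 0.000172) and changed by -0.24 in males (0.168), a difference between the sexes of -0.59 that did not pass (0.0944). Pgk1, phosphoglycerate kinase, fell in females (403 ± 18.0 to 279 ± 18.7 CPM, -0.53, 0.00178) and changed by -0.26 in males (0.0804). The genes that rose in females, named after their values were seen, were Hk2, Hk3, Pfkp and Pkm, known as the isoforms of non-hepatocyte tissues. Their log2 fold changes were 1.37, 1.2, 0.99 and 0.82 (edgeR adjusted p = 0.016, 0.0186, 0.0267 and 0.0108). Hk2 had at most 82 counts in a library, and its diets overlapped in females. Hk2, Hk3, Pfkp and Pkm rose beside the higher macrophage marker sum of those libraries, though 1 of its 6 markers was called higher. In males 1 of the 6 was called higher as well. In males, where that sum overlapped between diets, they changed by 0.86, 0.22, 0.35 and 0.33 (edgeR adjusted p = 0.11, 0.714, 0.464 and 0.276), Hk2 without overlap. The part of the macrophages in their values was not tested. In males Pfkfb4 rose (1.80, SE 0.45, edgeR adjusted p = 0.014), with at most 65 counts in a library and with overlap between the diets. Aldoa, Pfkfb2, Pfkm and Gpi1 fell in males by 0.78, 0.71, 0.39 and 0.38 (0.00263, 0.0258, 0.0417 and 0.0258). These genes were also named after their values were seen. Pfkl, the hepatic counterpart of Fbp1, was called in neither sex (log2 fold changes of 0.14 and -0.01). The median of the list was -0.05 in both sexes.

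Of the 21 other glycogen genes tested, 0 rose and 2 fell in females, and 3 rose and 4 fell in males, where 11.5% and 11.4% of all genes were called, with list medians of -0.01 and 0.00. In females DESeq2 called 2 higher and 2 lower, and limma on TPM and the fit without TMM scaling, which shift all genes upward as given for Pcx, called 3 higher and 1 lower. In males 2 higher and 2 lower were called without the filter and in limma on TPM. The male split was 2 and 3 with the close pair averaged, and 2 and 4 with the replicate block or the 2 groups fitted alone. Stbd1, which ties glycogen to membranes and lysosomes, fell in males (105 ± 9.43 to 58.6 ± 5.89 CPM, log2 fold change -0.85, edgeR adjusted p = 0.000699). In females it fell less firmly (-0.44, 0.0407), a call lost under 17 of 25 alternatives, with adjusted p up to 0.338; with 1 library left out it held only without high fat replicate 1 of the females, normal diet replicate 3 of the males, or high fat replicate 2 or 4 of the males. Ppp1r3g, a glycogen-targeting subunit of protein phosphatase 1, was near the lower end of detection and fell in females from 3.97 ± 2.31 to 0.65 ± 0.25 CPM (-2.60, 0.00407). On the scale of log2(TPM + 1), which shrinks changes of low genes, the differences were -1.05 in females and -0.53 in males. In males it fell from 1.57 ± 1.14 to 0.39 ± 0.09 CPM (-2.0, 0.0264), a call lost under 9 of 25 alternatives: limma on TPM (0.195 and 0.0639), no filter (0.0796), the close pair averaged (0.061), and those without normal diet replicate 1 (0.0929) or 4 (0.0501) or high fat replicate 1 (0.0541), 2 (0.0771) or 4 (0.0636). Phkg2, the liver catalytic subunit of phosphorylase kinase, which activates Pygl, fell in males (14.0 ± 0.60 to 9.14 ± 0.73 CPM, -0.62, 0.00514). Gaa, the lysosomal enzyme that degrades glycogen, fell in males (44.3 ± 0.95 to 35.1 ± 2.58 CPM, -0.34, 0.0128), a call lost without TMM scaling (0.0717), with no filter (0.0886) and in limma on TPM (0.0958 and 0.0964), and changed by 0.24 in females (35.3 ± 2.31 to 41.6 ± 1.85 CPM, adjusted p = 0.064). It was the 1 gene of these lists whose diet change differed between the sexes by edgeR (0.58, adjusted p = 0.0246), while DESeq2 also called 1 glycolysis gene and 2 regulators. That call was lost with no filter on low counts (0.119) and without normal diet replicate 2 (0.0608) or 4 (0.0582) of the females. The genes that rose in males were Gbe1, Epm2a and Nhlrc1, named after their values were seen (0.66, 0.70 and 1.11, edgeR adjusted p = 0.0454, 0.014 and 0.0147). They encode the branching enzyme, and laforin and malin, whose loss gives malformed glycogen in Lafora disease. For Gbe1 the diets overlapped in males, and Nhlrc1 had at most 64 counts in a library.

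Of the 8 genes for entry of fructose and galactose and the 7 of the pentose phosphate pathway, 0 were called in either sex by edgeR. Over all genes 11.5% were called in females and 11.4% in males, so lists this short can hold 0 at that share. Unadjusted p was under 0.05 for 2 of each list in females and for 1 of each in males. DESeq2 called 0 of the fructose and galactose genes in either sex, and 1 of the pentose phosphate genes in females and 0 in males. Limma on TPM and the fit without TMM scaling, which shift all genes upward as given for Pcx, called up to 2 of each list as higher in females. The medians were -0.13 in females and -0.05 in males for fructose and galactose entry, and -0.07 and 0.01 for the pentose phosphate pathway. Of 5 other glucose transporters tested, 0 were called in females and 1 in males, where 11.5% and 11.4% of all genes were called. Slc2a8, an intracellular transporter, fell in males (7.16 ± 0.47 to 4.76 ± 0.45 CPM, log2 fold change -0.59, edgeR adjusted p = 0.00361) and changed by -0.20 in females (0.277). In females 0 of these 5 were called by edgeR, DESeq2 or limma, 0 had an unadjusted p under 0.05, and the list's median was 0.03, beside 0.00 in males.

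Of 18 regulators of the pathway, 1 rose and 5 fell in females, and 0 rose and 3 fell in males, where 11.5% and 11.4% of all genes were called. Limma on TPM, which moves the median of all genes in females up by 0.15 or 0.22, gave 3 higher and 2 lower in females. In males it gave 0 higher and 1 lower, DESeq2 gave 2 and 3, and the 2 groups fitted alone gave 2 and 2. The edgeR median of the list was -0.22 in females and -0.10 in males, and in limma on log2(TPM + 1) it was 0.03 and 0.00. Foxo1, the insulin-restrained activator of G6pc and Pck1, held 65.6 to 79.8 CPM in females on the normal diet and 24.3 to 43.8 on the high fat diet. It fell by 1.01 on the log2 scale in females (edgeR adjusted p = 0.000382) and changed by -0.30 in males (0.204), a difference of -0.72 that did not pass (0.135). Cebpb, an activator of Pck1, fell in females (28.3 ± 5.83 to 12.7 ± 3.90 CPM, -1.15, 0.00218) and changed by 0.10 in males (0.808), a difference of -1.25 (edgeR adjusted p = 0.0599). Klf15, a regulator of amino acid use for glucose production, fell in males (125 ± 14.9 to 66.6 ± 18.2 CPM, -0.90, 0.00173) and in females (126 ± 12.7 to 80.3 ± 11.3 CPM, -0.65, 0.0152). Hnf4a, a master factor of hepatocyte identity, fell in females (557 ± 10.1 to 369 ± 42.4 CPM, -0.60, 0.00331) and in males (702 ± 103 to 508 ± 18.8 CPM, -0.47, 0.0139). The Klf15 call in females was lost without normal diet replicate 2 (0.06), without TMM scaling (0.0502) and in limma on TPM (0.063 and 0.0652), and the Hnf4a call in males without normal diet replicate 3 (0.0582). In limma on TPM, Hnf4a stood at 0.0501 and 0.0511 in females and at 0.0653 and 0.0637 in males. Of the other genes called, named after their values were seen, Cebpa rose and Klf9 fell in females (0.35 and -0.63), and Foxo3 fell by 0.53 in males. The exons of Cebpb, Foxo1, Pfkfb1 and Phkg2 overlap a gene on the other strand in GENCODE M21, so part of their reads could belong to it. That check covered 24 genes, the members among them. It left out Nr1d1, Dbp and the genes named after their values were seen.

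**Figure D4:**
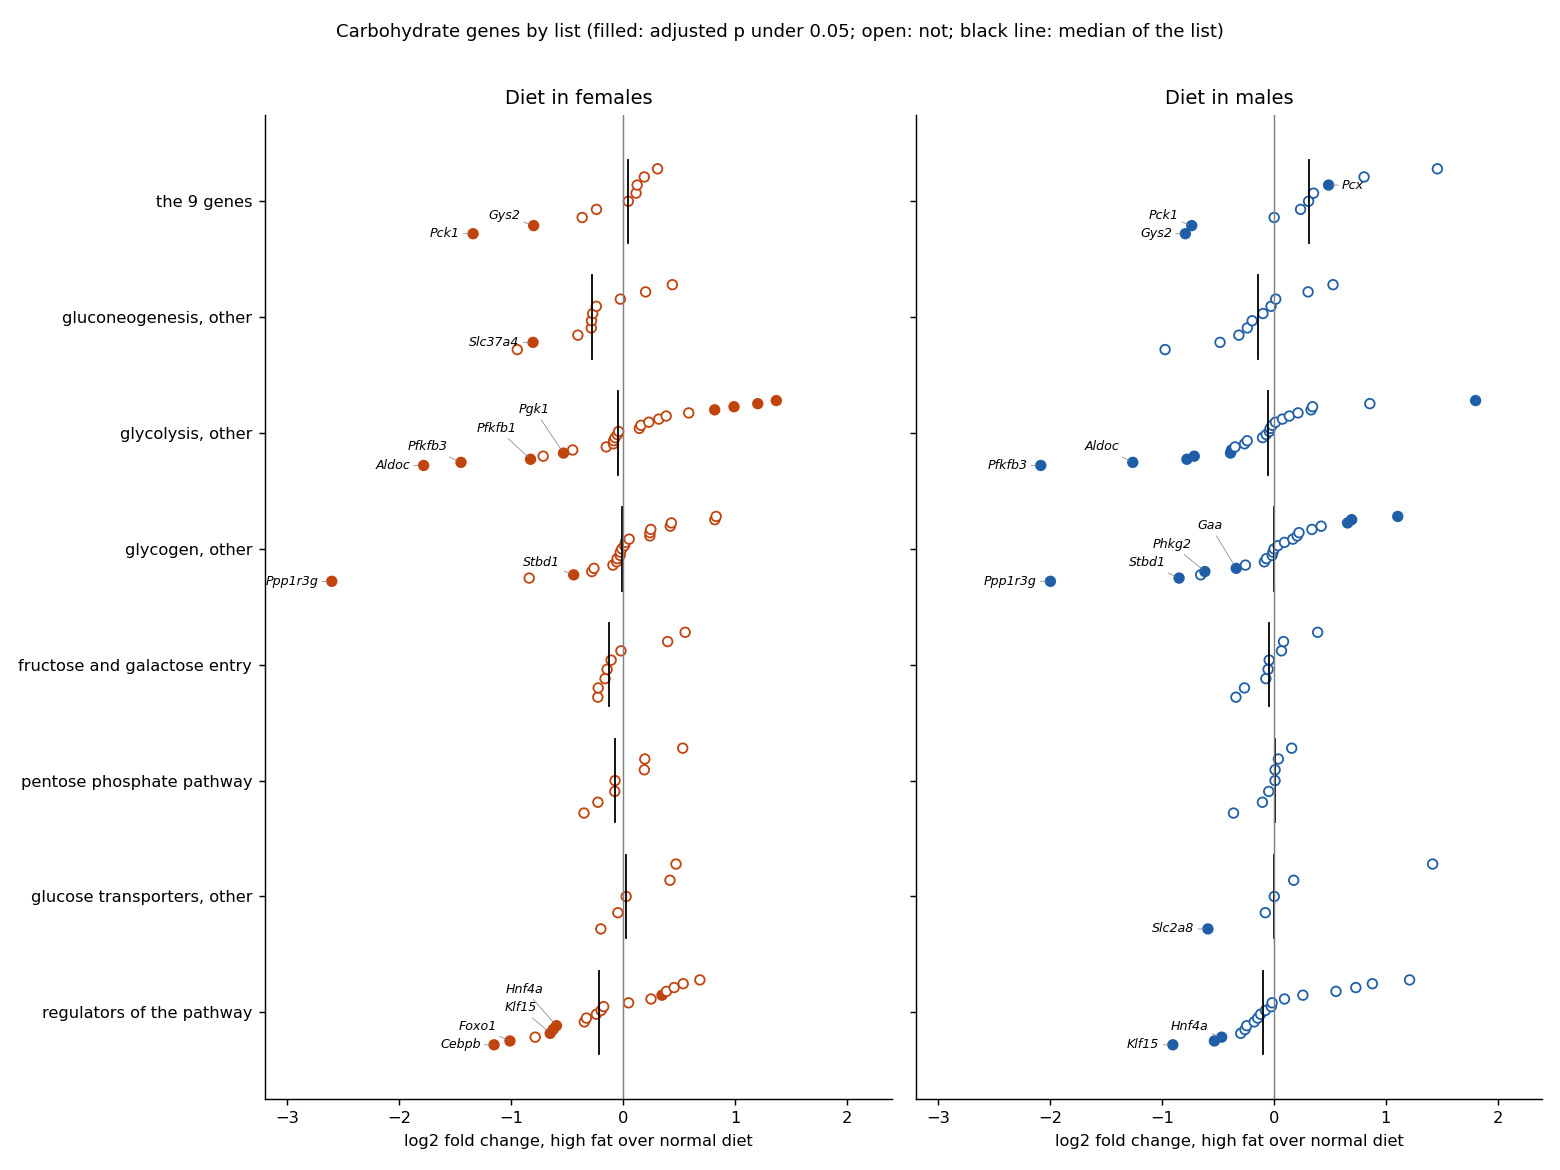
Log2 fold change on the high fat diet of the 9 genes and of the tested genes of the 7 lists, in females and in males. Filled points are called at an adjusted p under 0.05, open points are not, and the black line is the median of the list. Called genes lie on both sides of 0 in the glycolysis list of females, and Slc37a4 is the 1 called gene of the gluconeogenesis list.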

How the data were processed

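Liver RNA of 16 mice was sequenced as poly(A) libraries. STAR and RSEM on build GRCm39 are named in the submitters' processing notes, with no versions. The authors deposited RSEM expected counts, estimates that need not be whole, and TPM, per the file headers and values. Expected counts were rounded. The filterByExpr function of edgeR (version 4.0.16, under R 4.3.3), given the 4 groups, kept 14781 genes with 99.94% of all counts. Libraries were scaled by TMM, and the robust quasi-likelihood test of edgeR was fitted to all 16 libraries with 1 mean per group, giving 5 contrasts: diet in each sex, their difference (females minus males), and female minus male on each diet. Tests were two-sided, and a gene was called at a Benjamini-Hochberg adjusted p under 0.05 over all tested genes. Standard errors are the log2 fold change over the square root of the F statistic. The titles number the replicates of each group, and these were read as separate mice. The p-values set each difference against the spread between these libraries, with male high fat replicates 2 and 3 counted as 2 animals.

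Alternatives were DESeq2 1.42.0, limma 3.58.1 on log2(TPM + 1) and log2(TPM + 0.1), DESeq2 size factors, no TMM scaling, no filter, only the groups compared, a replicate block, the 2 closest libraries averaged, and each library left out. The edgeR script was tested on simulated data. The members and lists were chosen with earlier results of these data known. All 9 members are named. From the 7 lists up to 4 called genes with the smallest adjusted p were named, with Pfkl in any case; some genes are not reported here. For each called member, the 2 genes of highest Pearson correlation of log2 CPM were named. Cell types were checked with 11 marker lists. Exon overlaps came from GENCODE M21 on GRCm38, and promoters from RefSeq on GRCm38.p6, by symbol. Replicate numbers were not taken to pair the mice, so the main fit has no block.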

Additional observations from a re-analysis of the deposited data

Results flagged for a closer look

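G6pc in replicate 1 of males on the normal diet stood at 267.65 CPM, far above the other 3 of its group at 90.52 to 109.25 CPM. It was the 1 value among 108 groups of 4 examined by Dixon's criterion (the gap to the nearest library over the range of the group), which chance passes in about 1 of 20 groups, and the cause was not tested.

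The diet change differed between the sexes, females minus males on the log2 scale, for Gaa by 0.58 (edgeR adjusted p = 0.0246), for Nr1d1 by 3.71 (5.54e-06) and for Dbp by 2.27 (0.000837). Nr1d1 and Dbp had been chosen with earlier results of these data known. The Gaa call was lost under 3 of 24 alternatives, given above.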

How the results depend on the processing

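Of the members' calls, those of Pck1 and Gys2 in females and of Gys2 in males held under all 25 alternatives. The others lost under some are given with their values beside each gene.

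Genes called numbered 1700 for diet in females, 1684 in males, 100 for the difference between sexes, 2322 for sex on the normal diet and 3022 on the high fat diet. In females the count went to 2690 without TMM scaling (2318 higher, 372 lower), 2926 in limma on log2(TPM + 1) (2644 and 282) and 2763 on log2(TPM + 0.1) (2487 and 276), with the main split 848 higher and 852 lower. Those scalings shifted the median of all genes in females by 0.19, 0.15 and 0.22. The difference between sexes gave 341 genes in DESeq2 and 58 with male high fat replicates 2 and 3 averaged. Diet in males gave 1177 with that pair averaged. Sex on the high fat diet gave 1958 with only the groups compared. With 1 library left out the counts ran from 947 to 1874 in females, 1113 to 2043 in males, 51 to 176 for the difference, 1325 to 2766 for sex on the normal diet and 1974 to 3062 on the high fat diet. The cause was not tested.

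Members called in females numbered 4 without TMM scaling (2 higher, 2 lower), where 2690 of 14781 genes were called. They numbered 5 in both TPM fits (3 higher, 2 lower), where 2926 and 2763 genes were. Most of those genes were called higher, as given above. For sex on the high fat diet the members called numbered 0 with only the groups compared, where 1958 genes were called. For sex on the normal diet they numbered 0 without TMM scaling (2269 genes in all), with no filter (1820) and on TPM (1750 and 1852). The members called numbered 2 in DESeq2 (2895 genes in all) and with only the groups compared (2712). With 1 library left out they ran from 1 to 4 in males (1 without high fat replicate 2), 0 to 2 for sex on the normal diet and 1 to 3 on the high fat diet. The ranges over all genes are given above.

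Signs turned only where nothing was called. With DESeq2 size factors and in DESeq2, Fbp1 in males was -0.007 (edgeR main value 0.003) and the Gys2 difference between sexes was 0.004. With replicates 2 and 3 averaged these were -0.013 and 0.043, and Pygl for sex on the high fat diet was 0.038. Without TMM scaling the Gys2 difference was 0.093, Pfkl in males 0.077 and Pygl for sex on the high fat diet 0.062. In the 2 TPM fits the Gys2 difference was 0.157 in both, Pfkl in males 0.055 and 0.063, Pygl for sex on the high fat diet 0.128 and 0.129, and Slc2a2 in females 0.002 in both. With 1 library left out the ranges were -0.078 to 0.099 for Fbp1 in males, -0.020 to 0.193 for the Gckr difference, -0.108 to 0.091 for the Gys2 difference, -0.081 to 0.054 for Pfkl in males, -0.074 to 0.197 for Pklr in females, -0.137 to 0.050 for Pygl and -0.124 to 0.254 for Slc2a2 for sex on the high fat diet.

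Same-numbered libraries of 2 groups correlated at -0.159 to 0.18 in their deviations from group means, and were not over 0.1 in every pair, so the numbers were not taken to pair the mice. As a hint from the data only, between females and males on the normal diet these ran from 0.05 to 0.164, and 7 of the 8 libraries correlated best with their own number; in the other pairs of groups 1 to 5 of 8 did. With the replicate block Fbp1 in males was -0.001, and Gckr for sex on the high fat diet passed (0.413, adjusted p = 0.0451). No other member's call changed with the block.

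Limits are the 4 mice per group, 2 of them nearly alike among males on the high fat diet, diets that differ in maker, an hour of collection and strand use that are not given in the sources used here, and whole tissue, in which cell make-up and RNA per cell cannot be told apart. The change of a gene of few counts, such as Ppp1r3g with 9 to 186 counts, or Hk2 and Pfkfb4 with at most 82 and 65, is loosely bounded. RNA levels say nothing of enzyme activity, glucose output or glycogen content.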
